A study of Arabidopsis thaliana with 119 samples.

Results

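Of 32833 genes counted in Arabidopsis thaliana rosettes, 34 were near silent in exactly 1 of 5 natural accessions and clearly expressed in the other 4. They were chosen by measured values: CPM, the counts of a gene scaled to the library's total count, averaged over the W+N+ libraries of each accession, had to be below 0.1 in 1 accession and at least 5 in each of the other 4. Of these genes, 11 were near silent in Sha, 10 in Cvi-0, 6 in Tsu-0, 5 in Bur-0 and 2 in Col-0. By the same limits, 12122 genes reached 5 CPM in all 5 accessions. Near silent in exactly 2 accessions and at 5 CPM or more in all the others were 11 genes. For exactly 3 accessions there were 21 such genes. Another 32 reached 5 CPM in exactly 1 accession and were below 0.1 CPM in each of the other 4.

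The accessions Bur-0, Col-0, Cvi-0, Sha and Tsu-0 are natural inbred lines, and no transgene or mutation is named in the labels. Each was grown under 4 regimes on a robot that moves and waters every pot, for 23 days, and rosettes were taken at 31 days. W-N- plants received 50.7 ± 4.1 ml of solution with 1.5 mM nitrate (combined stress), W+N- plants 161.9 ± 11.1 ml with 0.5 mM (nitrogen deficiency), W-N+ plants 50.9 ± 4.67 ml with 5 mM (drought), and W+N+ control plants 160.4 ± 7.96 ml with 5 mM. The 119 libraries form 20 groups of 6, except Bur-0 W+N+ with 5, and their titles carry 1 of 2 codes, P3ID33 or P3ID34. The labels do not explain the codes.

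The W+N+ values chose the genes, so they are given below as descriptions. The 90 libraries of the 3 stress treatments took no part in the choice, and tests use them alone. Whether replicates were separate plants is not said in the labels, and p-values therefore reflect only how far these libraries differ.

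Arabidopsis accessions differ by deletions, duplications, truncations and silenced copies of single genes, and such differences are known above all for immune receptors and for enzymes of specialised metabolism. Plant immune receptors of the NLR type bind nucleotides and carry leucine-rich repeats; they detect pathogen effectors inside the cell, often in pairs encoded side by side. Specialised metabolism makes compounds that a plant can live without, such as anthocyanins and volatiles, and its enzymes often sit in tandem families.

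Total counts per library ran from 9698710 to 110421000, and the 5 rosette leaf markers summed to between 30917 and 112355 CPM in every library, against at most 8.48 CPM for 5 flower markers and 0.907 CPM for 3 seed markers. The 4 root markers summed to between 8.22 and 20.8 CPM, with SHR alone at 8.06 to 20.3 CPM. Per the labels the libraries are stranded and made from mRNA. Reads of every accession were assigned to 1 set of gene models. Its gene IDs match the TAIR10.1 annotation, which describes Col-0. Col-0 and the other accessions therefore do not stand alike in this respect. A gene that is missing, one whose sequence differs too much for its reads to be placed, and one that is not transcribed cannot be told apart here, nor can fewer cells of a type and less RNA per cell.

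One library went against its label in the genes described here. In Col-0 W+N- d, the 2 genes near silent in Col-0 had 287 counts (AT5G15360) and 56 counts (AT1G63540), and their summed level was 15.9% of the mean in the other 4 accessions. In the other 23 Col-0 libraries that sum was at most 0.265%. All 7 genes that reached 5 CPM in Sha and were near silent in the other 4 accessions were also detected in Col-0 W+N- d. Their summed level there was 13.7% of that in Sha, while the highest value in any other library outside Sha was 0.410%. The 13 genes chosen in the same way for Col-0 stood in Col-0 W+N- d at 134% of their Col-0 level. That is within the 112% to 155% of the other Col-0 W+N- libraries. All these percents are of W+N+ means. What put these counts there was not tested, and results that rest on this library are given with and without it.

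**Figure D1:**
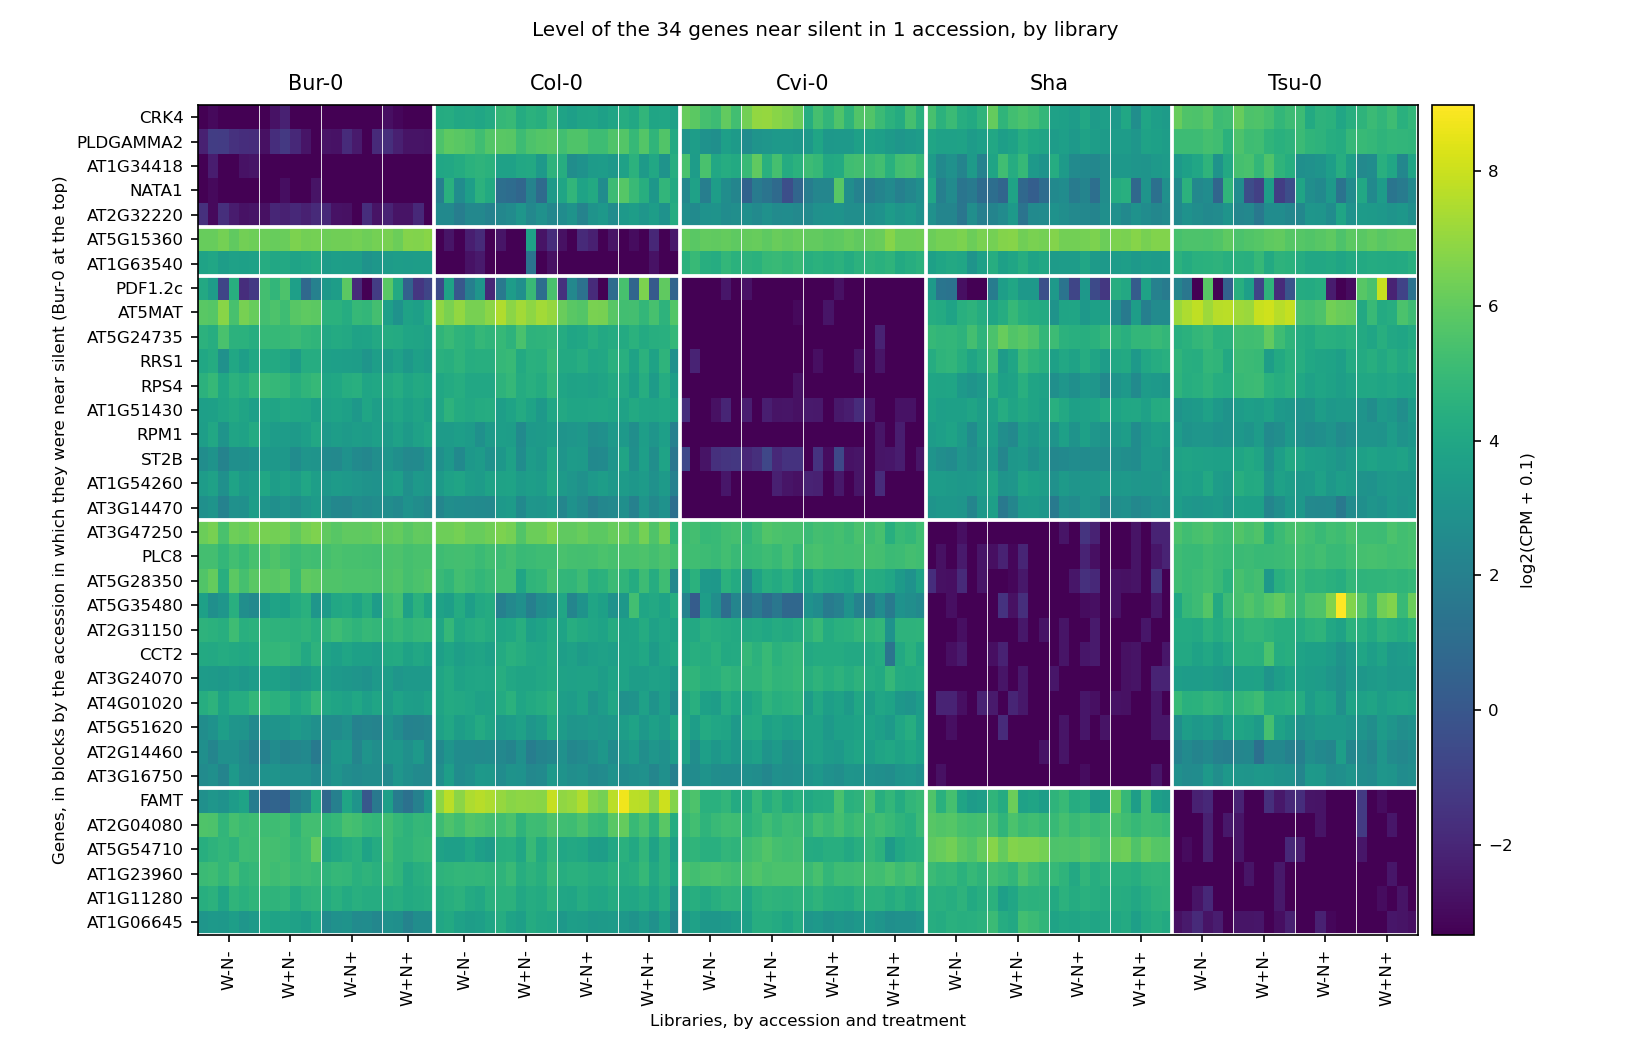
Level of each of the 34 genes (rows, in blocks by the accession in which they were near silent) in each of the 119 libraries (columns, by accession and treatment), as log2(CPM + 0.1) in colour. The dark blocks on the diagonal are the near-silent accession of each gene, and the single lighter column inside the Col-0 block is Col-0 W+N- d.

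**Figure D2:**
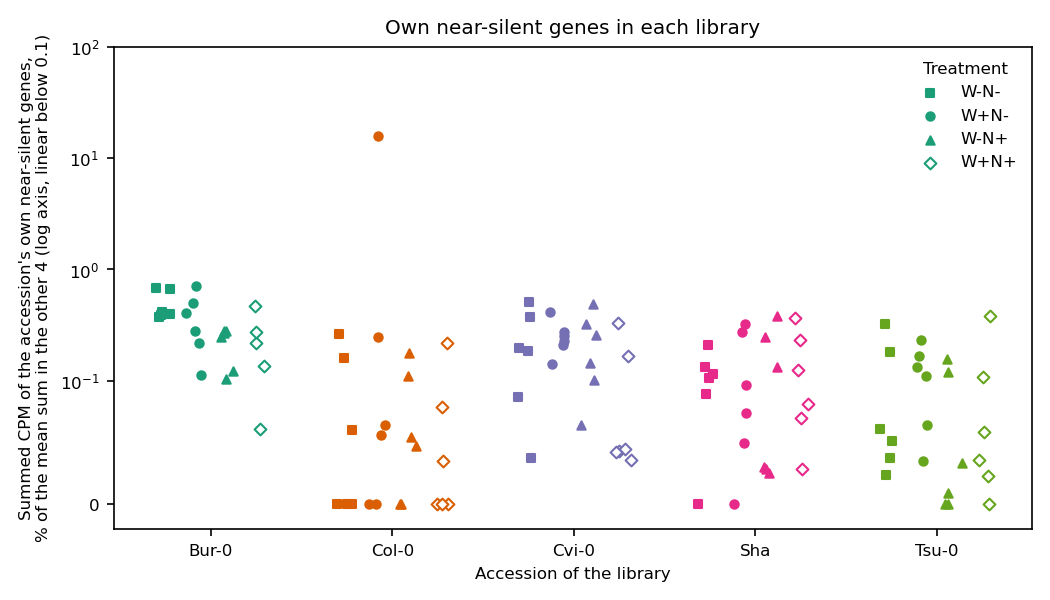
Summed CPM of the genes near silent in an accession, in each library of that accession (1 symbol per library, shape by treatment). Values are percents of their mean W+N+ sum in the other 4 accessions. The axis is logarithmic above 0.1 and linear below it; Col-0 W+N- d stands at 15.9% and every other library at 0.704% or less.

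The near silence held in the stress libraries. For 33 of the 34 genes, the highest of the 18 stress libraries of the near-silent accession lay below the lowest of the 72 of the other 4. The share of all 27830 genes with a count in these libraries that did so was 0.629% for Cvi-0, 0.431% for Sha, 0.28% for Bur-0, 0.255% for Tsu-0 and 0.0755% for Col-0. The exception was PDF1.2c, whose expressing accessions also held libraries at 0. In their near-silent accession, 29 genes averaged below 0.1 CPM in all 3 stress treatments, and 29 averaged at least 5 CPM in the other 4 accessions throughout, with 25 meeting both. Without Col-0 W+N- d, 31 averaged below 0.1 CPM in all 3 stress treatments and 27 met both.

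In edgeR's quasi-likelihood test over 19828 genes, all 34 genes were lower in their near-silent accession than in the mean of the other 4, at an adjusted p below 0.05. Among all tested genes, 33.2% were called lower in Cvi-0, 27.6% in Col-0, 26.8% in Tsu-0, 26.6% in Sha and 26.3% in Bur-0. Every one of the 34 had passed the filter on low counts through the accessions that express it, so this count is a description. It was 34 without Col-0 W+N- d and 33 with DESeq2.

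NLR immune receptors are encoded by 4 of the 34 genes, and all 4 were near silent in Cvi-0. RPM1 (AT3G07040), which guards RIN4 against effectors of Pseudomonas syringae, had no count in the 18 Cvi-0 stress libraries, against a lowest of 5.36, a median of 10.3 and a highest of 17.9 CPM in the other 72. Against a floor of 3 counts over the 18 libraries, it was at least 1267-fold lower in Cvi-0. AT3G14470, which encodes an NB-ARC protein, was the single gene with no count in any Cvi-0 library under any treatment, and it ranged from 3.04 to 13.1 CPM (median 7.15) in the stress libraries of the others, at least 930-fold lower in Cvi-0.

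RPS4 (AT5G45250) and RRS1 (AT5G45260) are a known receptor pair that recognises bacterial effectors and is transcribed from a shared intergenic region. RPS4 had 2 counts in 1 of 18 Cvi-0 stress libraries, against a lowest of 5.64 and a median of 17.2 CPM elsewhere. RRS1 had 4 counts in 3 of 18 Cvi-0 stress libraries, against 7.34 to 35.4 CPM with a median of 18.8 elsewhere. Neither gene's Cvi-0 libraries came near the others.

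In the control libraries that chose them, RPS4 averaged 0 CPM in Cvi-0 (n = 6), against 15.2 ± 4.30 in Col-0, 16.9 ± 1.91 in Bur-0, 8.79 ± 1.73 in Sha and 15.3 ± 1.01 in Tsu-0 (SD, n = 6 each, 5 for Bur-0). RRS1 averaged 0.0104 ± 0.0254 CPM in Cvi-0, against 17.5 ± 7.09 in Col-0, 11.2 ± 1.45 in Bur-0, 17.0 ± 3.87 in Sha and 19.2 ± 1.96 in Tsu-0. RPS4 was thus lowest in Sha among its expressing accessions, and RRS1 in Bur-0.

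NLR genes make up 11.8% of the 34 (4 genes), against 0.355% of the genes that reached 5 CPM in all 5 accessions and 0.618% of the table. Of the other 199 NLR genes, 141 were tested in the stress libraries. Cvi-0 had 65 of them lower and 45 higher than the mean of the other 4 (46.1% lower and 31.9% higher, against 33.2% and 34% of all tested genes), with a median log2 difference of -0.42 against 0.00 over all genes. In Sha 61 were lower and 46 higher (43.3% and 32.6%, against 26.6% and 32.4%). Higher calls outnumbered lower ones in the other 3 accessions: in Col-0 35 were lower and 72 higher (24.8% and 51.1%, against 27.6% and 29.3%), in Bur-0 31 and 73 (22.0% and 51.8%, against 26.3% and 29.6%), and in Tsu-0 32 and 65 (22.7% and 46.1%, against 26.8% and 32.5%). By at least 2 on the log2 scale, Cvi-0 had 24 of these NLR genes lower and 6 higher, Sha 22 lower and 13 higher, and Col-0 2 lower and 39 higher. The gene IDs follow the Col-0 annotation, and how far that shaped these counts was not tested.

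A further list of 62 genes known from the literature to be absent, silent or strongly variable between accessions held 3 of the 34: RPM1, RPS4 and RRS1. Of the 59 others, 54 were tested. The lower ones numbered 26 in Sha (48.1%, against 26.6% of all tested genes), 23 in Cvi-0 (42.6%, against 33.2%), 17 in Tsu-0 (31.5%, against 26.8%), 16 in Bur-0 (29.6%, against 26.3%) and 15 in Col-0 (27.8%, against 27.6%). The higher ones numbered 18 in Sha (33.3%, against 32.4%), 22 in Cvi-0 (40.7%, against 34%), 26 in Tsu-0 (48.1%, against 32.5%), 32 in Bur-0 (59.3%, against 29.6%) and 27 in Col-0 (50%, against 29.3%). RLM3 (AT4G16990), a TIR-domain gene of fungal immunity, missed the choice narrowly with 0.128 CPM in Tsu-0 control libraries, against 86.7 CPM or more in each other accession.

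Defence and receptor genes were near silent in other accessions too. CRK4 (AT3G45860), a cysteine-rich receptor-like kinase, had 5 counts in 3 of the 18 Bur-0 stress libraries, against 10.5 to 132 CPM with a median of 28.5 elsewhere. AT1G11280, an S-locus lectin receptor kinase gene, had 6 counts in 3 Tsu-0 stress libraries, against 12.3 to 26.8 CPM with a median of 20.9 elsewhere. Both genes were far apart between the accessions.

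PDF1.2c (AT5G44430), a defensin peptide gene of jasmonate and ethylene defence, had 4 counts in 3 of the 18 Cvi-0 stress libraries. Elsewhere it ran from 0 to 59.6 CPM with a median of 2.92. Its control level was 0 CPM in Cvi-0 and, in the other 4, 9.81 ± 8.00 in Sha, 15.2 ± 24.1 in Bur-0 (n = 5), 33.8 ± 39.3 in Col-0 and 57.3 ± 93.8 in Tsu-0 (SD, n = 6 each otherwise). The SD exceeded the mean in Bur-0, Col-0 and Tsu-0, so these 4 accessions did not differ beyond their spread.

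Among specialised metabolism genes, AT5MAT (AT3G29590) encodes a malonyltransferase that decorates anthocyanins. It had 3 counts in 2 of 18 Cvi-0 stress libraries, against 7.92 to 269 CPM with a median of 56.3 elsewhere. The pooled level of the other 4 accessions was 9820 times that of Cvi-0 (95% counting interval 3360 to 47618, covering counting error only). AT5MAT levels in the 4 accessions that express it followed the treatments, as described below with nitrate supply.

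FAMT (AT3G44860), a methyltransferase of the SABATH family that acts on farnesoic acid, had 19 counts in 9 of 18 Tsu-0 stress libraries, at most 0.213 CPM in any. Elsewhere it ran from 0.897 to 238 CPM with a median of 21.9. Its control means were 216 ± 117 CPM in Col-0, 29.3 ± 24.8 in Sha, 28.1 ± 8.18 in Cvi-0 and 6.23 ± 4.14 in Bur-0, so the highest of its expressing accessions was 34.7 times the lowest. That is the widest such ratio of the 34. Sha and Cvi-0 did not differ beyond their spread, and Col-0 stood above all others with every library at 84.1 CPM or more under any treatment.

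AT1G06645, a 2-oxoglutarate-dependent oxygenase gene, had 20 counts in 12 of 18 Tsu-0 stress libraries, at most 0.173 CPM, against 5.13 to 37.6 CPM with a median of 13.0 elsewhere. Its paralogue AT1G06650 is annotated as overlapping it on the same strand and was expressed in Tsu-0 at 51.8 CPM, against 46.3 CPM in the other 4 (control means).

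Other enzymes with a named product follow. NATA1 (AT2G39030), which acetylates ornithine and is known as a jasmonate-induced gene, had no count in the 5 Bur-0 control libraries and 3 counts in 3 of the 18 Bur-0 stress libraries. Elsewhere its stress libraries ran from 0.369 to 55.2 CPM with a median of 5.01. ST2B (AT5G07000), a sulfotransferase, had 86 counts in 16 of 18 Cvi-0 stress libraries, at most 0.558 CPM, against 4.49 to 17.4 CPM with a median of 8.42. The others were 39.9 times as high (32.3 to 49.8).

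Lipid enzymes were near silent in Bur-0 and Sha. PLDGAMMA2 (AT4G11830), a phospholipase D, kept 61 counts in 16 of 18 Bur-0 stress libraries, at most 0.378 CPM, against 6.27 to 61.5 CPM elsewhere (median 19.4). PLC8 (AT3G47290), a phosphoinositide-specific phospholipase C, had 15 counts in 9 of 18 Sha stress libraries, against 27.9 to 47.2 CPM (median 37.1). CCT2 (AT4G15130), an enzyme of phosphatidylcholine synthesis, had 11 counts in 7 Sha stress libraries, against 7.98 to 44.4 CPM (median 17.1).

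PLC8 had the most even level among its 4 expressing accessions next to AT1G54260: control means of 43.7 ± 2.26 CPM in Bur-0, 43.1 ± 2.94 in Col-0, 40.2 ± 2.30 in Tsu-0 and 37.7 ± 3.09 in Cvi-0 stood against 0.0427 ± 0.0537 in Sha. The ratio of highest to lowest was 1.16 for PLC8 and 1.13 for AT1G54260, a winged-helix transcription factor gene near silent in Cvi-0, with 16 counts in 8 Cvi-0 stress libraries against 7.05 to 20.9 CPM. Neighbouring accessions in the PLC8 order did not differ beyond their spread.

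AT2G04080, a transporter gene of the MATE efflux family, had 5 counts in 4 of 18 Tsu-0 stress libraries, against 23.2 to 55.8 CPM with a median of 35.9 elsewhere. AT2G32220, a ribosomal L27e gene, kept a trace in 17 of 18 Bur-0 stress libraries (36 counts, at most 0.231 CPM), against 2.54 to 14.8 CPM. AT4G01020, a helicase and IBR-domain gene, had 24 counts in 9 Sha stress libraries against 7.17 to 35.0 CPM. None of these 3 genes overlapped between the accessions.

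AT5G54710, an ankyrin repeat gene, had 8 counts in 5 Tsu-0 stress libraries against 10.6 to 108 CPM elsewhere. AT5G28350, a RIC1-like gene, had 27 counts in 10 Sha stress libraries against 5.18 to 67.2 CPM. AT1G51430, a cTAGE family gene, had 26 counts in 13 Cvi-0 stress libraries against 7.58 to 24.2 CPM. Of the 34, 3 had no count in the stress libraries of their near-silent accession, all 3 in Cvi-0 (RPM1, AT3G14470 and AT5G24735), and the others kept a trace of reads.

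The 2 genes near silent in Col-0 depend on Col-0 W+N- d for their stress values. AT5G15360, an uncharacterised gene, had 305 counts in 11 of 18 Col-0 stress libraries, of which 287 came from that library (13.2 CPM), against 42.4 to 106 CPM with a median of 69.3 elsewhere. AT1G63540, a hydroxyproline-rich glycoprotein gene, had 59 counts in 4 Col-0 stress libraries, of which 56 came from it (2.57 CPM), against 7.87 to 32.3 CPM with a median of 17.4. Without it, the Col-0 W+N- means were 0.0627 and 0.00972 CPM, against 2.24 and 0.436 CPM with it, and the highest of all other Col-0 libraries was 0.194 and 0.0872 CPM. Both genes kept apart from the other accessions with the library in.

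Non-coding RNAs made up 5.88% of the 34 (2 genes), against 0.107% of the genes expressed in all 5 accessions and 15.5% of all genes in the table. AT5G24735 had no count in the 18 Cvi-0 stress libraries, against 13.7 to 69.2 CPM with a median of 25.3 elsewhere, at least 3513-fold lower. AT1G34418 had 6 counts in 3 Bur-0 stress libraries, against 4.22 to 62.6 CPM with a median of 16.9. Neither range met the other.

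Genes of unknown product made up 20.6% of the 34 (7 genes), against 6.67% of the genes expressed in all 5 accessions and 12.7% of the table, and 5 of the 7 were near silent in Sha. AT3G47250, which encodes a DUF247 membrane protein, had 13 counts in 4 of 18 Sha stress libraries, at most 0.264 CPM, against 23.6 to 96.3 CPM with a median of 49.2 elsewhere. AT5G35480 had 13 counts in 6 Sha stress libraries against 1.10 to 503 CPM; the high end was 1 Tsu-0 W-N+ library, in a group with a median of 73.0 CPM. AT1G23960, a DUF626 gene, had 3 counts in 2 Tsu-0 stress libraries, against 16.9 to 50.4 CPM. The classes with no gene among the 34 were transposable elements, pseudogenes, F-box, BTB or MATH genes, cytochrome P450s, glycosyltransferases and other kinases. Of the genes expressed in all 5 accessions, they made up 0.0660%, 0.00825%, 0.792%, 0.445%, 0.338% and 5.21%, in that order. At such shares, their absence among 34 genes tells little.

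Within the 4 accessions that expressed each gene, levels varied more than for genes expressed in all 5. The ratio of the highest to the lowest of the 4 control means had a median of 1.92 over the 34 and reached 3 in 9 of them. Over the 12122 genes expressed in all 5 accessions, the median was at most 1.35, whichever 4 accessions entered, and between 1.95% and 2.72% of those genes reached 3. The median gene of the 34 had 3 exons and a transcript of 1685 bases, against 6 exons and 1861 bases, and 23.5% had a single exon against 9.01%. The median control level over all 5 accessions, the near-silent one included, was 13.5 CPM for the 34 and 25.4 CPM for the comparison genes. The sets were not matched for level. The choice used the control means, so these are descriptions with no test.

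By chromosome, 7 of the 34 lie on chromosome 1, 5 on chromosome 2, 9 on chromosome 3, 3 on chromosome 4 and 10 on chromosome 5. In that order, these are 20.6%, 14.7%, 26.5%, 8.82% and 29.4% of the 34. The shares of the genes that reached 5 CPM in all 5 accessions are 25.8%, 15.1%, 20.3%, 15.2% and 23.6%. Chromosome 5 holds 5 of the 10 genes of Cvi-0, with the neighbours RPS4 and RRS1 among them. Chromosome 3 holds 4 of the 11 of Sha, with AT3G47250 and PLC8 among them. In the gene order of the annotation, 4 of the 34 had another of the same accession with at most 2 genes between, and 30 did not; 0.104% of all placed genes belong to the 34. The first pair was RPS4 and RRS1 of Cvi-0, with no gene between them. The second was AT3G47250 and PLC8 of Sha, separated by MIR2933b and MIR5645a, which had no count in Sha control libraries or in the other 4.

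Some neighbours outside the 34 were low in the same accession. Of 66 flanking genes (the nearest gene of the table on each side), 38 could be tested in the stress libraries: 13 were lower in the near-silent accession, 13 were higher and the rest were not called. That is 34.2% lower, against 26.3% to 33.2% of all tested genes, depending on accession, as given above. Of the 38, 7 were lower by at least 2 on the log2 scale and 2 were higher by as much, while 0.989% (Col-0) to 1.93% (Cvi-0) of all tested genes were lower by as much and 1.54% (Sha) to 3.34% (Cvi-0) were higher by as much.

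With the nearest tested gene on each side, 64 genes, 25 were lower and 21 higher, 9 of them lower by at least 2 on the log2 scale (14.1%) and 2 higher. At the second to the fifth tested gene, the number lower by at least 2 was 2, 2, 3 and 1 of 64 each. The median log2 difference of the nearest tested genes was -0.08, and 43 of the 64 lay within 1 of no difference. Most of these nearest tested genes therefore stood within 1 on the log2 scale of their level in the other accessions, and 9 were far lower. Of the 66 flanking genes, only 38 could be tested, and untested genes were passed over here. These counts are of neighbours, and do not show how many near-silent genes had a low gene beside them.

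**Figure D3:**
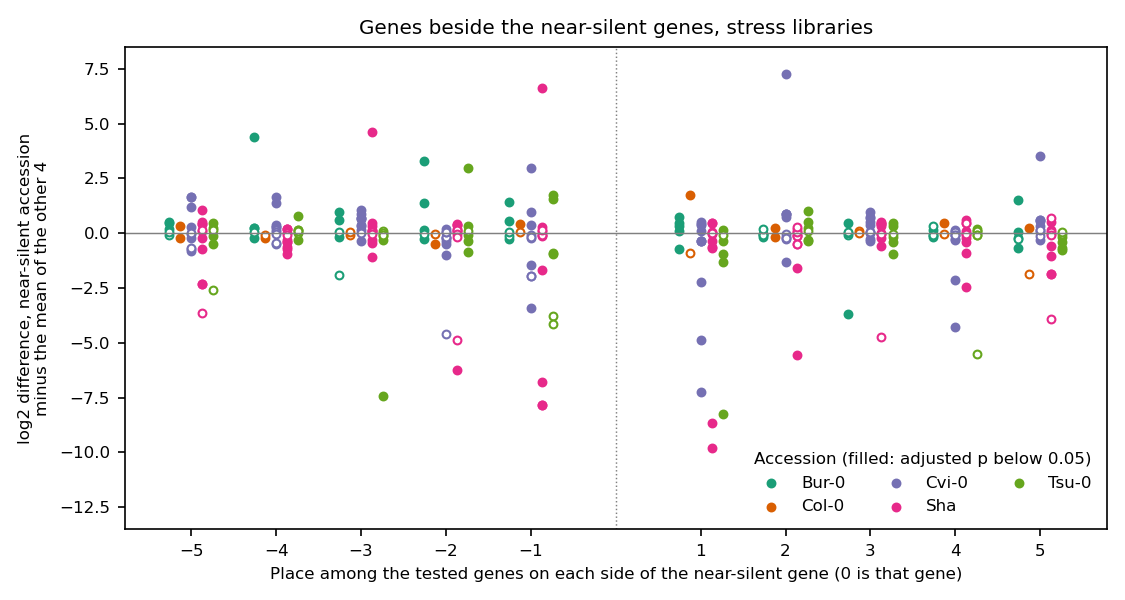
log2 difference between the near-silent accession and the mean of the other 4 in the stress libraries (vertical axis) for the 5 nearest tested genes on each side of each of the 34 genes (horizontal axis, place among tested genes), coloured by accession and filled where the adjusted p was below 0.05. Most points lie near 0; 9 of 64 at the nearest place were lower by at least 2. Values for genes with no count in the accession depend on the prior count of the fit and are no bound.

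The low neighbours were mostly of Sha and Cvi-0. MRU1 (AT5G35490), which follows AT5G35480, had 4 counts in the Sha stress libraries and a control mean of 0 CPM in Sha, against 14.7 CPM in the other 4. The second tested genes on each side of AT5G35480 were lower in Sha too. AT5G35450 changed by log2 -6.26 (edgeR adjusted p = 5.67e-48) and AT5G35510 by -5.55 (6.23e-16). They are the 2 genes counted above as lower by at least 2 at the second place. AT5G51630, an NLR gene which follows AT5G51620, had no count in any Sha library, against a control mean of 4.87 CPM elsewhere. AT3G07675, a non-coding RNA gene before AT3G47250, and AT2G31141, which overlaps AT2G31150 on the other strand, had no count in Sha either, against control means of 2.04 and 0.663 CPM in the other 4.

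In Tsu-0, AT5G54720 beside AT5G54710 had no count, against a control mean of 4.36 CPM in the other 4. AT5G54700, on the other side of AT5G54710, and AT2G04070, beside AT2G04080, also had no count in Tsu-0. Their control means in the other 4 were 0.313 and 0.223 CPM. The fit called neither, so the numbers of lower neighbours above leave both out. In Cvi-0 the low neighbours were relatives of the near-silent gene or lay farther off. PDF1.2 (AT5G44420), beside PDF1.2c, was lower in Cvi-0 (log2 -3.42 ± 0.33 SE, edgeR adjusted p = 9.70e-16), with control means of 2.65 CPM in Cvi-0 against 51.6 CPM in the others. ST2A (AT5G07010), which sulfates a hydroxylated jasmonate, was lower beside ST2B (log2 -2.24 ± 0.16, edgeR adjusted p = 3.56e-22).

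Farther off, AT3G14540, which is 8 genes from AT3G14470, had no count in Cvi-0, against a control mean of 0.973 CPM elsewhere. AT3G29639, which is 15 genes from AT5MAT, had 11 counts over all Cvi-0 libraries, with control means of 0.0167 CPM in Cvi-0 and 3.28 CPM elsewhere. In the opposite direction, AT2G14440 before AT2G14460 was higher in Sha, at control means of 1.18 CPM in Sha and 0.0284 CPM in the others, and SPP1 before AT1G51430 was higher in Cvi-0, at 0.459 CPM against 0.0913 CPM.

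Genes with a close relative can gain or lose reads by where an aligner places them. Of the 32 genes with a protein, 11 had a relative of at least 70% identity over 80% of the length (34.4%, against 29.7% of the genes expressed in all 5), and 5 had one of at least 90%. In 5 of the 11 the relative was the next gene, and in 7 it lay within 5 genes. In the stress libraries of the near-silent accession, 3 relatives were higher, 2 lower, 4 not called and 2 untested.

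PLDGAMMA3 (AT4G11840), 92.5% identical to PLDGAMMA2, was higher in Bur-0 (log2 0.45 ± 0.07 SE, edgeR adjusted p = 6.95e-08), with control means of 20.1 CPM in Bur-0 and 16.2 CPM elsewhere. AT3G61480, 98.1% identical to AT5G28350, was higher in Sha (0.39 ± 0.06, edgeR adjusted p = 1.51e-07), at 24.1 CPM against 19.8 CPM. AT5G10370, 94.7% identical to AT4G01020, stood at 10.7 CPM in Sha and 11.3 CPM elsewhere and was not called. Both relatives lower in Cvi-0 were ST2A and PDF1.3 (AT2G26010), the second 96.2% identical to PDF1.2c, at 0.315 CPM in Cvi-0 against 14.6 CPM. Levels within these families, and of the 5 genes that overlap another annotated gene, are uncertain to that extent.

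Treatment responses were tested in the 4 accessions that express each gene. For nitrate, W-N- was set against W-N+: both received about the same volume, with less nitrate in W-N-. Of the 34 genes, 13 were higher in W-N- and 5 lower (edgeR, adjusted p below 0.05), and 16 were not called. That is 38.2% higher and 14.7% lower, where 24.1% of all gene tests were higher and 19.7% lower. The median absolute log2 change was 0.19 over the 34, and between 0.15 and 0.17 over all tested genes. No gene of the 34 changed by 2-fold or more, as 1.47% of all gene tests did.

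AT5MAT had the lowest p for nitrate. In Tsu-0 it ran from 140 to 224 CPM (median 188) in W-N- and from 40.3 to 80.6 CPM (median 56.7) in W-N+. In Bur-0 it ran from 41.4 to 110 CPM (median 62.6) in W-N- and from 19.8 to 39.0 CPM (median 25.6) in W-N+. The 2 treatments did not overlap in either accession. In Col-0 W-N- it ran from 86.9 to 124 CPM against 51.8 to 91.4 CPM in W-N+, and the 2 treatments overlapped. In Sha the median was 19.4 CPM in W-N- and 12.6 CPM in W-N+, again with an overlap. Over the 4 accessions it was 1.95-fold higher in W-N- (log2 0.96 ± 0.08 SE, edgeR adjusted p = 1.61e-17, higher in 4 of 4 accessions).

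Between W-N- and W+N-, AT5MAT did not change detectably, with a log2 change of -0.02 ± 0.08 (edgeR adjusted p = 0.837). The order of the 4 accessions was Tsu-0, Col-0, Bur-0 and Sha in W-N-, at 182 ± 34.5, 104 ± 17.8, 69.5 ± 25.6 and 19.4 ± 3.44 CPM (SD, n = 6). Cvi-0 W-N- libraries held no AT5MAT count.

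CRK4 was 1.58-fold higher in W-N- than in W-N+ (log2 0.66 ± 0.08, edgeR adjusted p = 5.66e-11, 4 of 4 accessions) and fell by 0.44 ± 0.08 on the log2 scale in W-N- relative to W+N- (adjusted p = 2.21e-06, lower in 3 of 4). It averaged 51.1 ± 15.1 CPM in Cvi-0 W-N-, 103 ± 23.8 in W+N- and 35.3 ± 12.5 in W-N+. Among these 3 treatments it was likewise highest in W+N- and lowest in W-N+ in Col-0 and Sha. In Tsu-0, W-N- (48.5 ± 13.2 CPM) and W+N- (44.5 ± 14.1 CPM) did not differ beyond their spread.

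The receptor pair of Cvi-0 also responded in the other accessions. RPS4 was higher in W-N- than in W-N+ (log2 0.38 ± 0.06, edgeR adjusted p = 6.75e-08) as was RRS1 (0.30 ± 0.08, adjusted p = 0.00194), both higher in 4 of 4 accessions. The RRS1 call for nitrate was lost within code P3ID33 alone and within code P3ID34 alone. RPS4 was lower in W-N- than in W+N- (log2 -0.30 ± 0.06, edgeR adjusted p = 1.07e-05, 4 of 4). RRS1 was not called for water (-0.10 ± 0.08, adjusted p = 0.334), and whether the pair differed in this was not tested.

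AT5G35480, an uncharacterised gene, was lower in W-N- (log2 -0.63 ± 0.18, edgeR adjusted p = 0.00263), in 3 of its 4 expressing accessions. Its Tsu-0 W-N+ libraries averaged 138 ± 181 CPM (SD, n = 6). The call was lost within code P3ID34 and without replicate letter e, and the gene was not among the 8 of lowest p. Of those 8, AT4G01020 was 1.35-fold higher in W-N- (edgeR adjusted p = 1.28e-06). AT1G06645 was 1.26-fold higher (3.34e-06) and AT1G23960 1.15-fold higher (1.31e-04), and all 3 were higher in 4 of 4 accessions. PLC8 was lower (log2 -0.25 ± 0.05, edgeR adjusted p = 1.96e-06, lower in 4 of 4). FAMT (log2 0.28 ± 0.20, adjusted p = 0.261) and RPM1 (0.16 ± 0.08, adjusted p = 0.0701) were not called.

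For water, W-N- was set against W+N-, which received more solution and about the same total nitrate. Nitrate was 1.5 mM in W-N- and 0.5 mM in W+N-, so volume and concentration changed together and cannot be told apart here. Of the 34 genes, 3 were higher in W-N- and 8 lower, and 23 were not called. That is 8.82% higher and 23.5% lower, beside 18.5% and 20.2% of all gene tests. The median absolute log2 change was 0.13 over the 34 and between 0.13 and 0.15 over all tested genes. NATA1 and PDF1.2c were the 2 genes called at 2-fold or more, as 1.91% of all gene tests were.

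NATA1 was 3.23-fold higher in W-N- than in W+N- (log2 1.69 ± 0.30, edgeR adjusted p = 2.32e-06, 4 of 4 accessions). In Col-0 it ran from 3.89 to 24.1 CPM (median 14.8) in W-N- and from 1.55 to 10.3 CPM (median 2.04) in W+N-. In Cvi-0 it ran from 3.76 to 13.0 CPM (median 5.79) in W-N- and from 0.684 to 3.39 CPM (median 1.68) in W+N-, with no overlap. In Sha and Tsu-0 the treatments overlapped, with high W+N- libraries of 13.7 CPM in Sha and of 11.3 and 6.24 CPM in Tsu-0. Bur-0 stayed at or below 0.0582 CPM in every library.

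PDF1.2c was lower in W-N- (log2 -1.95 ± 0.36, edgeR adjusted p = 6.09e-06, lower in 3 of 4 accessions). In Bur-0 it ran from 0.205 to 20.7 CPM (median 5.77) in W-N- and from 1.71 to 46.7 CPM (median 19.6) in W+N-, so the treatments overlapped. The change was -3.88 within code P3ID33 and -0.92 within P3ID34 (adjusted p = 0.0517), and without a term for the code the adjusted p was 0.0666 (-1.19). NATA1 changed by 2.38 within P3ID33 and 1.46 within P3ID34, with both called.

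Smaller water changes were lower levels of AT5G54710 (log2 -0.59 ± 0.07, edgeR adjusted p = 4.63e-11), CCT2 (-0.50 ± 0.07, 5.60e-09) and AT1G06645 (-0.41 ± 0.06, 1.32e-08) in W-N-, each in 4 of 4 expressing accessions. In Sha, AT5G54710 ran from 49.6 to 81.5 CPM in W-N-, from 67.8 to 108 in W+N- and from 38.3 to 54.1 in W-N+. AT2G04080 was higher in W-N- (0.26 ± 0.06, adjusted p = 1.14e-04). No gene of the 34 was called higher for both nitrate and water.

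**Figure D4:**
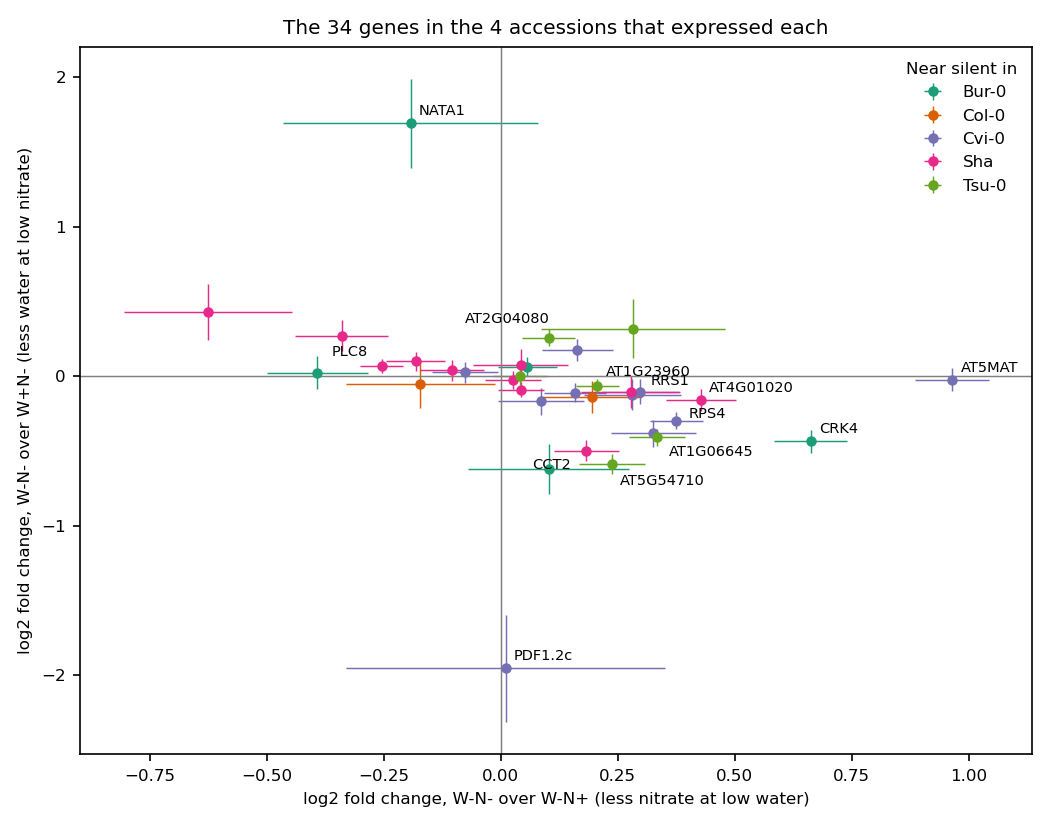
log2 fold change of each of the 34 genes in the 4 accessions that express it, W-N- over W-N+ (horizontal axis) and W-N- over W+N- (vertical axis), with standard errors from the edgeR fit and colour by near-silent accession. AT5MAT (0.96) and CRK4 (0.66) lie far to the right, NATA1 (1.69) at the top and PDF1.2c (-1.95) at the bottom.

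**Figure D5:**
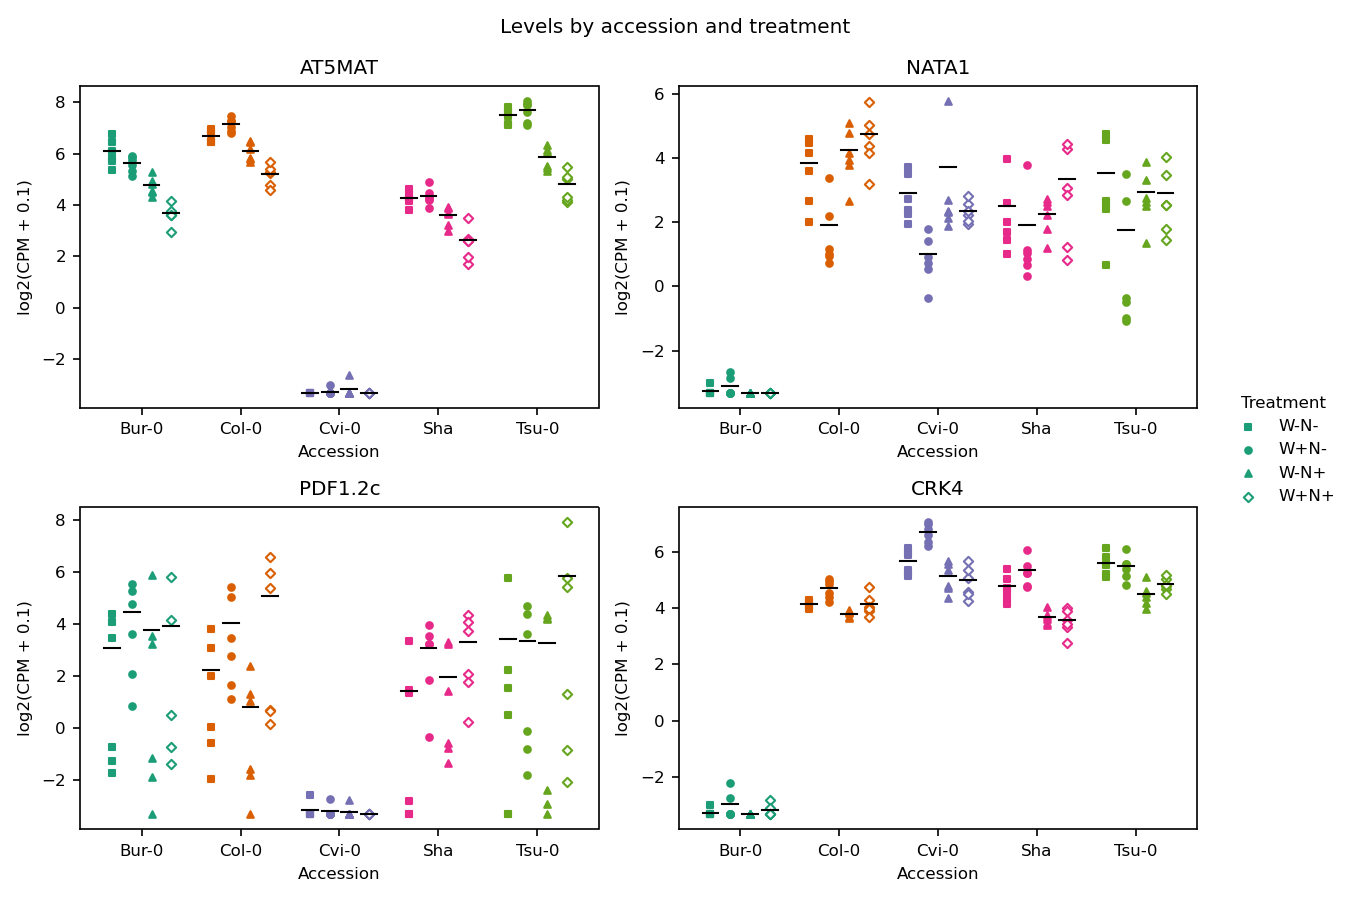
Level of AT5MAT, NATA1, PDF1.2c and CRK4 as log2(CPM + 0.1) in each library (1 symbol per library, shape by treatment), by accession, with bars at the log of the mean CPM. AT5MAT and PDF1.2c are near the bottom in Cvi-0 and NATA1 and CRK4 in Bur-0, and PDF1.2c and NATA1 spread widely within groups.

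At the edges of the choice, the highest levels still counted as near silent were 0.0978 CPM for PLDGAMMA2 and 0.0823 CPM for AT2G32220 in Bur-0, and 0.0699 CPM for AT5G28350 in Sha. Just outside were AT1G07380 in Sha (0.106 CPM), RLM3 in Tsu-0 and CRK41 (AT4G00970) in Cvi-0 (0.172 CPM). The lowest levels counted as expressed were 5.02 CPM for NATA1, 5.43 CPM for AT5G35480 and 5.65 CPM for AT5G51620, and AT2G01090 (4.99 CPM), CRK21 (AT4G23290, 4.78 CPM) and AT7SL-1 (AT4G02970, 4.52 CPM) fell just short.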

How the data were processed

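The authors deposited whole-number counts per gene for 119 RNA-seq libraries, with no normalization. Trimmomatic 0.36 and HISAT2 are listed in the submitters' processing notes. How reads were counted, with which strand setting and on which build, is not given in the sources used here. Members and gene lists were chosen with earlier results of these data known. CPM are counts over the column total; totals ran from 9698710 to 110421000, and intervals and floors cover counting error only. Gene names, classes, order, exons and lengths came from the TAIR10.1 annotation, which matched 32548 gene IDs. Proteins were compared with BLAST+ 2.17.0.

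The 90 stress libraries were fitted with edgeR 4.0.16 (R 4.3.3; TMM, filterByExpr, 15 groups plus the code, quasi-likelihood F test, two-sided), adjusted by Benjamini-Hochberg over all 19828 genes and called below 0.05. Accession contrasts average the 3 stress treatments; nitrate and water contrasts average the 4 expressing accessions, so background shares pool 5 versions. The fit was tested on simulated counts. Genes named are those of highest level per accession, neighbouring members, members of named classes, those at the limits, the 8 of lowest adjusted p for nitrate and for water, low flanking genes and close paralogues. AT2G14440, SPP1, AT5G35450, AT5G35510 and AT5G54700 fall outside this rule and were chosen after their values were seen.

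Alternatives were RLE factors, no filter, no code, each code alone, DESeq2 1.42.0, limma 3.58.1 voom, a block for replicate letters, each letter left out in turn, other limits and other libraries for the choice. Leaving out single libraries and taking the nearest tested neighbour were chosen after seeing the data.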

Additional observations from a re-analysis of the deposited data

Results flagged for a closer look

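Summed levels of an accession's own near-silent genes were compared within each of the 20 groups of accession and treatment. In 3 groups 1 library stood farther from the rest than Dixon's 95% critical value allows. Chance flags about 1 group in 20 where values are normally distributed, which was not tested for these low counts. Col-0 W+N- d had 15.9% of the W+N+ level in the other 4 accessions, far above its group. Col-0 W+N+ d had 0.216% (4 counts) and Tsu-0 W+N+ a 0.383% (11 counts), the second being the highest Tsu-0 library. Other accessions held libraries of up to 0.704%. What set these libraries apart was not tested. Among single genes in the accessions that express them, 53 of 544 groups (9.74%) held a library past the same critical value.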

How the results depend on the processing

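The number of genes near silent in 1 accession was 59 with 2 CPM and 15 with 10 CPM as the limit for expression, against 34 with 5 CPM; all other alternatives gave 27 to 46, and leaving out 1 replicate letter 31 to 35. With W+N- libraries in place of W+N+, no Col-0 gene was chosen; without Col-0 W+N- d both were. Leaving out letter f left 2 Bur-0 genes of 5. Genes called for nitrate numbered 18, 14 within P3ID33 and 8 within P3ID34, all 8 among the 18 and of the same sign; leaving out a letter gave 14 to 20. Water gave 11, with 8 and 12 within codes and 10 to 13 without a letter. Without Col-0 W+N- d the counts were 20 and 12, and without 3 libraries far from their groups 21 and 15. Flanking genes called lower numbered 13 (13 without any letter) and 25 with the nearest tested gene; DESeq2 and limma voom gave 15 each. Genes called lower in their accession (34) and not overlapping (33) kept these counts without any letter.

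With the replicate letter as a replicate block the counts were 34 lower, 13 flanking, 18 for nitrate and 12 for water. Letters did not pair samples (median correlation of same-letter deviations -0.005, 33 of 90 pairs above 0.1). The 16 changes of lowest adjusted p, 8 for nitrate and 8 for water, kept their direction in 17 alternatives each. Of 272 values, 5 were no longer called: PDF1.2c for water, and RRS1 and AT1G23960 for nitrate. Depth limits the near-silent side: 3 counts over 18 stress libraries are 0.00696 to 0.00910 CPM.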
